A study of Mus musculus with 12 samples.

Results

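The response of control dendritic cells (DCs) to interferon-β (IFN-β) was described from 6 of the 12 RNA-seq libraries of the series, which were taken by their labels: 3 libraries of shControl cells treated with IFN-β for 6 h and 3 of unstimulated shControl cells. The cells were grown from mouse bone marrow in granulocyte-macrophage colony-stimulating factor (GM-CSF). In both groups they carried a retroviral control hairpin (shRNA) aimed at luciferase of the firefly, a gene that mouse cells do not have, and per the study's methods they came from female C57BL/6 mice and were enriched for a human CD8 reporter on the vector. The other 6 libraries held the same treatments in cells with an shRNA against *Ppargc1b* (sh*Ppargc1b*). They entered the choice of tested genes, the scaling and the estimate of spread. The response of these cells was compared with that of the control only at the end and in a closing section. The labels do not say whether the 3 libraries of a group came from separate cultures or animals, so p-values measure only the spread between these libraries, which may be technical.

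Type I interferons such as IFN-β signal through a receptor of 2 chains, *Ifnar1* and *Ifnar2*, and the kinases *Jak1* and *Tyk2*. These phosphorylate STAT proteins, which join IRF9 and switch on genes that carry interferon-stimulated response elements. The products block viral replication, sense foreign nucleic acids and present antigen, and DCs also use the signal to mature into cells that instruct T cells. Growth-linked processes such as ribosome assembly, nucleotide synthesis and lipid synthesis are known to be restrained in interferon-treated cells of several kinds.

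The shControl libraries held 49.9 to 77.7 M counts each, and 18228 of 55471 genes had enough counts to be tested. Levels are given as counts per M counts of the library (CPM) on library sizes corrected with TMM factors, which are trimmed means of log ratios between libraries. They are not divided by gene length, so they compare libraries and not genes. In a principal component analysis of the 6 libraries, treated and untreated cells lay apart on the first axis (71.7% of variance, against 8.74% on the second). The label was checked against marker genes. *Itgax*, which encodes CD11c, had 1018, 900.5 and 927 CPM in unstimulated and 1079, 974.8 and 954.3 CPM in IFN-β libraries, *Cd74*, the MHC class II invariant chain, had 2290, 1905 and 2062 and 2530, 2042 and 2251 CPM, and *Zbtb46*, a transcription factor of classical DCs, had 21.2, 16.6 and 18.4 and 22.1, 19.6 and 18.9 CPM. *Flt3*, the receptor of the growth factor for DCs, was low at 1.70, 2.41 and 1.72 and 1.94, 2.38 and 1.45 CPM, and *Cd209a* did not have enough counts to be tested. Macrophage genes were also high. *Lyz2* had 10710, 9965 and 10370 CPM without and 9946, 9203 and 9850 CPM with IFN-β, and *Csf1r* had 1216, 1247 and 1215 and 1195, 1230 and 1236 CPM.

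Other cell types were seen at low levels. The summed CPM of 10 neutrophil genes ran from 42.7 to 97.5 without IFN-β and from 40.1 to 102 with it, that of 7 eosinophil genes was 39.3 to 75.8 and 37.0 to 70.5, and that of 8 mast cell or basophil genes was 9.29 to 18.1 and 12.5 to 20.1. Among the 4 lymphocyte genes tested it was 0.606 to 0.993 and 1.08 to 1.44, and the 9 erythroid genes were below the count limit. These ranges overlapped between treatments except for the lymphocyte genes. Plasmacytoid DC genes went from 120 to 145 CPM in sum to 376 to 409 CPM, with *Bst2* and *Tcf4* holding most of it, while *Siglech* was below the count limit. *Bst2* is also a member of the antiviral effectors counted below. Of the 11 macrophage-like markers tested, 6 rose (54.5%, against 23.7% of all genes), among them the Fc receptor gene *Fcgr1*. Of the 11 dendritic-like markers 4 rose (36.4%) and *Irf4* fell. In whole cultures, fewer cells of a type and less RNA per cell cannot be told apart.

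The promoters of the genes with the largest rises, and of genes of the most lowered process, are shown first, because the share of promoters holding some of the searched motifs, the interferon element above all, moved with the size of the response. Sequences are RefSeq promoters of build GRCm38.p6, from 250 bases before to 50 after the farthest upstream start, and 11263 of the 18228 tested genes (61.8%) could be matched by symbol. They are in lower case, 5′ to 3′ on the gene's strand, with matches to the searched letters on either strand in capitals. The interferon-stimulated response element (ISRE) core was searched as GAAANNGAAA, the gamma-activated site (GAS) core, bound by pairs of STAT proteins, as TTCNNNGAA, the sterol element core as TCACNCCAC, the E2F core as GCGGGAA and the E-box, bound by MYC and MAX and by other factors, as CACGTG. The E-box was added after the values were seen. A GAS core or an E2F core can share the letters GAA with an ISRE core.
*Ifit1bl1*, an IFIT family gene, the largest rise at a mean log2 CPM of 3 or more (chr19:34601919-34602218, minus strand; ISRE core from -104 to -95): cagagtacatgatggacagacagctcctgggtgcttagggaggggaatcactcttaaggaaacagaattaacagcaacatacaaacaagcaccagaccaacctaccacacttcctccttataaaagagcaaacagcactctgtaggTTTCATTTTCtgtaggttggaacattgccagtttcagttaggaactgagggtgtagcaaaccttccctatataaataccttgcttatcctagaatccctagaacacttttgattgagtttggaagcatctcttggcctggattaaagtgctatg
*Ms4a4c*, a membrane protein gene with a large rise and no match (chr19:11407411-11407710, plus strand): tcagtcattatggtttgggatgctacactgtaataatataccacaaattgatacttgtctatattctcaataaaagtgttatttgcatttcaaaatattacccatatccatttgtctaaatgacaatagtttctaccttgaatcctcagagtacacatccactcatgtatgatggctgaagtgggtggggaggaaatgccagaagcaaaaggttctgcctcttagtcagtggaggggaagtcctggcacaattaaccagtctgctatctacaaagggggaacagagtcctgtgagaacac
*Cxcl10*, a T cell attracting chemokine (chr5:92348840-92349139, minus strand; ISRE core from -213 to -204): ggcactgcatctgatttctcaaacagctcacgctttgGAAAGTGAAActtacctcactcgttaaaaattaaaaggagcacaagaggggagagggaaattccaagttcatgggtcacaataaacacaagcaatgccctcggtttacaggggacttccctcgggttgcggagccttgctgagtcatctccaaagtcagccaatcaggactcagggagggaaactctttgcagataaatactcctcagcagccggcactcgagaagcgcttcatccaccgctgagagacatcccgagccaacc
*Tgtp1*, an interferon-inducible GTPase (chr11:48992197-48992496, minus strand; GAS core from -88 to -80 and ISRE core from -77 to -68): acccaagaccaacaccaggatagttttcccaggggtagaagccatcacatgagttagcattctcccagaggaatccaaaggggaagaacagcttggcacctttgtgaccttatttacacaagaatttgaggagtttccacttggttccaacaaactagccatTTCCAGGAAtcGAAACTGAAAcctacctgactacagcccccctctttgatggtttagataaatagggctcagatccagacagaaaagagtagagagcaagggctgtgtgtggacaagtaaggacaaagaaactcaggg
*Polr1b*, a subunit of RNA polymerase I, with a large fall (chr2:129100746-129101045, plus strand; GAS core from -15 to -7): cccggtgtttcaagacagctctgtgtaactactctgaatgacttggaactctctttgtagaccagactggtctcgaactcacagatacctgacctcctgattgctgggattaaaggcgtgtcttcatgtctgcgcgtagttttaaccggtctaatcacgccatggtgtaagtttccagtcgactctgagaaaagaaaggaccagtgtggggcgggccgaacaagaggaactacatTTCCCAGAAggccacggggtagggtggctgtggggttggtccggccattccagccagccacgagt
*Nop58*, a core protein of box C/D small nucleolar particles, with a large fall (chr1:59684756-59685055, plus strand; E2F core from -108 to -102 and GAS core from -46 to -38): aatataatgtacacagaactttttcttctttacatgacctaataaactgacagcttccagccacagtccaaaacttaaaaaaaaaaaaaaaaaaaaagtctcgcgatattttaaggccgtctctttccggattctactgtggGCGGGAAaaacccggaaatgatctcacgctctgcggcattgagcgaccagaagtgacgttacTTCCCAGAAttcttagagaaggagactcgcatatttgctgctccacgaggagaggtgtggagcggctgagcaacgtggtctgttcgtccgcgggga
*Utp20*, a protein of the small subunit processome, with a large fall (chr10:88826765-88827064, minus strand; E-box from 37 to 42): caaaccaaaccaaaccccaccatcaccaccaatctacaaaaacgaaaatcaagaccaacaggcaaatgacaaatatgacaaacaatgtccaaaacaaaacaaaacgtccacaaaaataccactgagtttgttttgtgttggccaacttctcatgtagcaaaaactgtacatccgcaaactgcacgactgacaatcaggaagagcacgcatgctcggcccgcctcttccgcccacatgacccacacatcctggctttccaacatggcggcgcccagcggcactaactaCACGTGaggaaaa

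Positions are counted from the start, with bases before it negative. The first pair of promoters was taken as the 2 largest rises with a promoter outside chromosome 18, and *Polr1b* and *Nop58* as the 2 members with the largest fall, among lists in which most members fell, that held a letter match other than the E-box. *Cxcl10*, *Tgtp1* and *Utp20* were chosen after their values were seen. A match is a run of letters and not a shown binding site, and the absence of one says only that the letters are not in these 300 bases.

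To determine which genes responded to IFN-β, treated shControl cells were compared with unstimulated ones. Of 18228 genes, 4312 (23.7%) were higher and 4481 (24.6%) were lower at an adjusted p under 0.05, so 48.2% were called in either direction. The rises were larger than the falls. A change of at least 1 on the log2 scale was called in 1304 genes upward (7.15%) and in 631 downward (3.46%). At 2 or more the numbers were 499 and 47, at 3 or more 215 and 3, and 60 genes rose by 5 or more. The median log2 fold change was 0.60 among genes called higher and -0.47 among those called lower. Genes that rose by at least 1 took 3.96% to 4.22% of the counts in unstimulated libraries and 13.5% to 14.2% in IFN-β libraries. TMM scaling allows for this, and the median log2 fold change of all genes was then -0.03. With library totals alone the median was -0.27, and 2598 genes were called higher and 8294 lower, which moves the share called higher among all called genes from 49% to 23.9%. Small falls are therefore relative to the other genes, and falls of lists below are to be read against these medians. Counts of called members of lists are likewise to be read against the shares of all genes. These were 23.7% higher and 24.6% lower, or 14.3% and 45.5% with library totals alone.

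**Figure D1:**
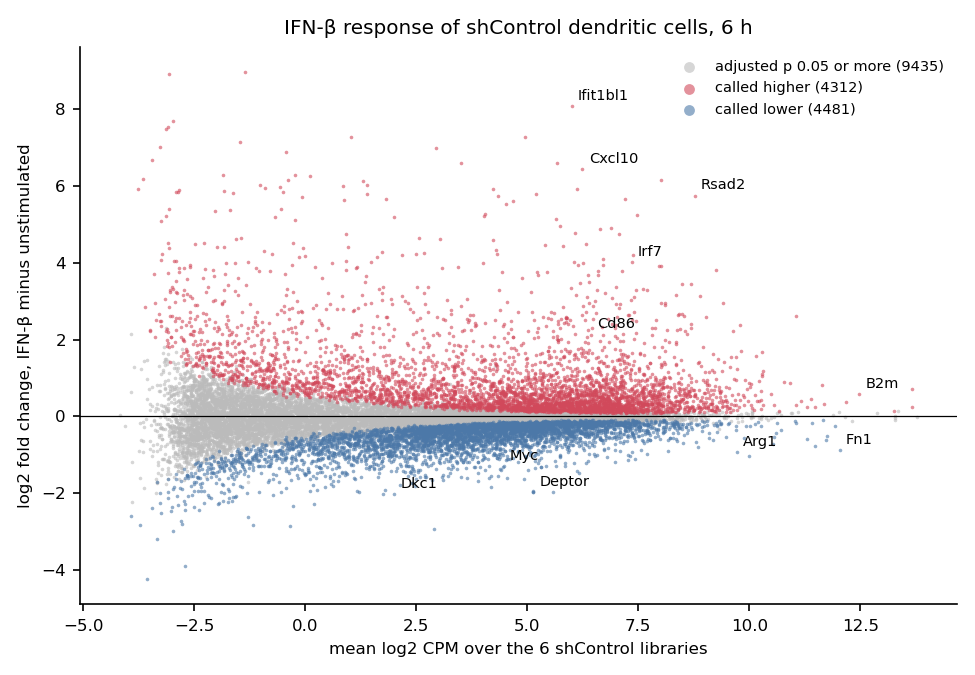
Each point is 1 of 18228 tested genes, with the mean log2 CPM over the 6 shControl libraries on the x axis and the log2 fold change with IFN-β on the y axis. The 4312 genes called higher reach far above the largest falls, and the 4481 called lower stay mostly between 0 and -2.

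Among genes with a mean log2 CPM of at least 3, the largest rises were in antiviral and GTPase genes. *Ifit1bl1* (ENSMUSG00000079339, chromosome 19, 34592891 to 34601956, minus strand, GRCm38) had 3.36, 4.90 and 3.39 CPM in the unstimulated libraries and 1004, 1075 and 1119 CPM with IFN-β, which is 8.09 ± 0.15 on the log2 scale (estimate ± SE, adjusted p = 1.99e-15, as for all values of this form). Every treated library stood far above every unstimulated one. *Ms4a4c* went from 4.87, 6.68 and 3.94 to 488.7, 511.8 and 511.8 CPM (6.60 ± 0.15), and the groups were again far apart. *Cxcl10*, whose protein draws T cells through CXCR3, went from 8.15, 11.3 and 5.34 to 650.4, 790.9 and 729.7 CPM (6.44 ± 0.22). *Ifit2*, whose product binds viral RNA, went from 30.04, 38.8 and 23.2 to 2087, 2374 and 2190 CPM (6.17 ± 0.18). *Rsad2*, which encodes viperin, an enzyme that makes a chain-terminating nucleotide, went from 57.9, 78.5 and 43.99 to 2918, 3516 and 3300 CPM (5.75 ± 0.18). Its neighbour *Cmpk2*, a nucleotide kinase, rose by 5.66 ± 0.16. *Tnfsf10*, the death ligand TRAIL, went from 2.10, 3.13 and 1.95 to 136.2, 157 and 146.3 CPM (5.93 ± 0.13). The other leading rises were in *Iigp1* (7.27), *Ifit3b* (6.60), *Ifit3* (5.92), *Ifi208* (5.80) and *Tgtp2* (5.74). *Ifit3* and *Ifit3b*, and *Tgtp1* and *Tgtp2*, are near-identical pairs whose counts rest on the bases that differ, so the split within a pair is uncertain.

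Whole classes of interferon genes rose. Of 60 antiviral effectors tested, 58 rose and *Ifi27* fell (from 8.50, 8.27 and 7.62 to 5.49, 6.07 and 4.47 CPM, -0.61 ± 0.12, adjusted p = 4.84e-04), with a list median of 2.58 against -0.03 for all genes. All 22 interferon-inducible GTPases tested rose, with a median of 3.73. In this list *Gbp10* had 0 counts in each unstimulated library and 8, 21 and 39 counts with IFN-β, which is at least 6.1-fold higher against a floor of 3 counts per library, and the list median was 3.60 with *Gbp10* at that bound. These GTPases attack the membranes around intracellular parasites and bacteria. A list of 26 nucleic acid sensors and adaptors also held *Nod1*, *Nod2* and *Nlrc5*, the last of them counted again with MHC class I below. Of the 26, 25 rose, with a median of 2.70. *Mavs* was called lower (-0.15 ± 0.05), a call lost in 4 of the 6 fits that left out 1 shControl library (adjusted p from 0.0508 to 0.147). Members of the IFI200 family of DNA-binding proteins led the rises. *Ifi213* went from 16.7, 26.3 and 13.4 to 519.8, 602.3 and 531.9 CPM (4.87 ± 0.18) and *Ifi206* from 23.1, 34.2 and 20.7 to 669.3, 730.7 and 707.1 CPM (4.75 ± 0.14).

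The signalling chain had a list median of 0.48, with larger rises in some of its factors. *Irf7*, the factor that drives interferon-α genes, went from 34.7, 48.7 and 38.7 to 619.8, 675.2 and 684.7 CPM (4.02 ± 0.11, adjusted p = 6.30e-14). *Stat2*, which pairs with IRF9, went from 141.5, 152.2 and 135.6 to 898, 904.6 and 911.6 CPM (2.66 ± 0.05). *Usp18*, which removes ISG15 and blocks the receptor, rose by 4.11 ± 0.11, and *Socs1*, an inhibitor of JAK kinases, by 1.82 ± 0.07. The receptor chains rose by about the list median. *Ifnar1* had 165.3, 166.8 and 160.4 CPM without and 221.2, 243.2 and 224 CPM with IFN-β (0.48 ± 0.05, adjusted p = 7.39e-07), and *Ifnar2* had 38.9, 41.3 and 41.4 and 56.5, 59.3 and 55.3 CPM (0.49 ± 0.06). The groups did not overlap for either chain, as was so for 56.7% of all tested genes. In all, 24 of 33 members of the list rose and 4 fell. The falls were in *Ifngr1* (-0.53 ± 0.05), which encodes the ligand-binding chain of the IFN-γ receptor, *Ptpn1* (-0.31 ± 0.04), *Irf4* (-0.29 ± 0.06) and *Irf3* (-0.22 ± 0.06). *Ifnb1* itself had 1, 0 and 0 counts without and 16, 17 and 16 counts with IFN-β, among the lowest levels tested. Of 21 interferon genes in the table, 9 had 0 counts in all 6 libraries, and a count of 0 allows up to 3 counts per library.

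**Figure D2:**
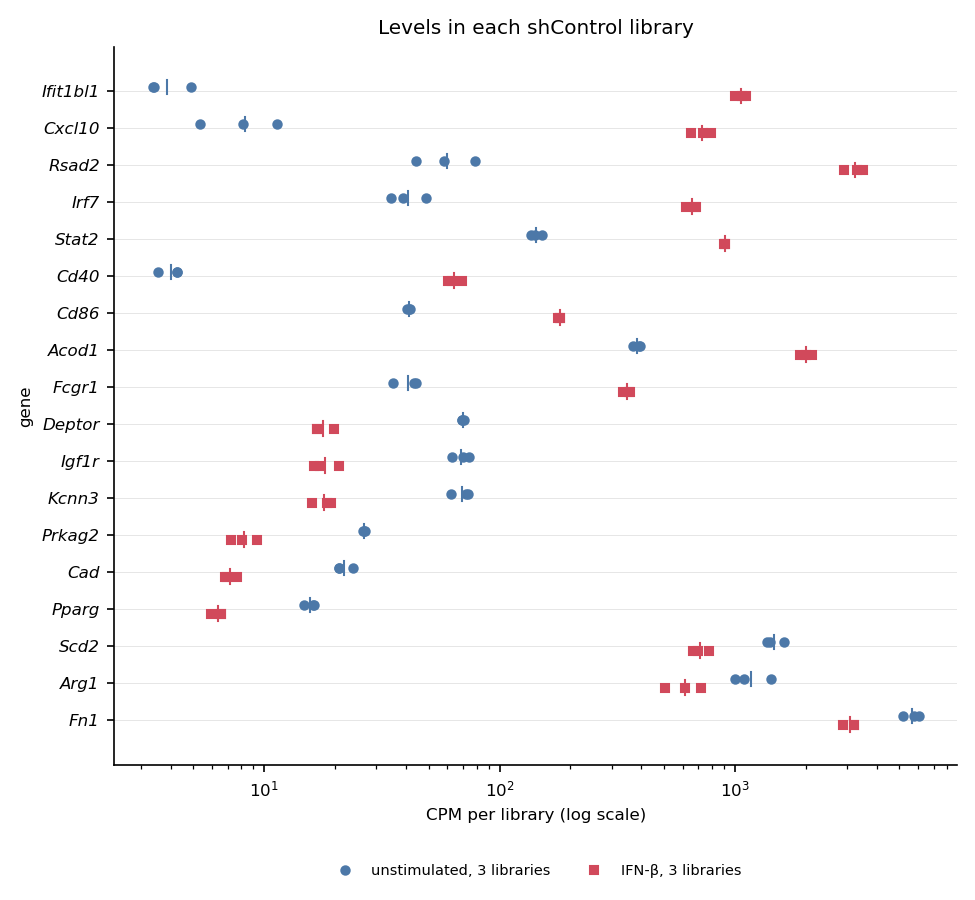
The x axis gives CPM on a log scale for 18 genes; circles are the 3 unstimulated and squares the 3 IFN-β shControl libraries, and vertical ticks are group means. For each gene shown the 2 groups do not overlap, as is so for 56.7% of all tested genes. *Ifit1bl1* moves most upward and *Deptor* most downward.

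Antigen presentation rose in its class I branch. All 25 tested genes of MHC class I and peptide loading rose, with a median of 1.54. *Nlrc5*, the transactivator of these genes, went from 62.99, 65.4 and 60.3 to 396.2, 398.5 and 390.1 CPM (2.65 ± 0.06, adjusted p = 1.06e-14). *Tap1*, a chain of the peptide transporter, went from 65.95, 72.8 and 64.5 to 298.3, 291.9 and 304.7 CPM (2.14 ± 0.05), and the immunoproteasome subunit *Psmb9* from 27.1, 26.4 and 24.8 to 101.4, 103.4 and 104.7 CPM (1.98 ± 0.05). *B2m*, the light chain, was abundant before treatment and rose from 4499, 4746 and 4629 to 6638, 7027 and 7217 CPM (0.59 ± 0.05). The largest rise was in the nonclassical gene *H2-T22* (2.83 ± 0.06), which has close copies, so its share of reads is uncertain. The class II and costimulation list was mixed, with 10 of 20 genes called higher (50%, against 23.7% of all genes) and a median of 0.26. With a block for runs of successive library codes 16 were called. *H2-Ab1* had 658.2, 551.5 and 590.6 CPM without and 762.8, 602.5 and 661.9 CPM with IFN-β, and the groups overlapped (0.17 ± 0.09, adjusted p = 0.114). Within each run of successive library codes it was higher with IFN-β. The rises in that list included costimulatory and checkpoint molecules. *Cd40* went from 4.27, 4.24 and 3.53 to 60.7, 69.5 and 62.5 CPM (3.998 ± 0.11), *Cd86* from 41.2, 40.3 and 41.8 to 181.4, 181.3 and 177.5 CPM (2.13 ± 0.04) and *Cd274*, which encodes PD-L1, from 479.1, 526.4 and 462.6 to 1117, 1266 and 1190 CPM (1.28 ± 0.06).

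Soluble signals followed. Of 18 chemokines tested, 12 rose, with a median of 0.68, and the CXCR3 ligands rose most: *Cxcl9* went from 0.665, 0.770 and 0.550 to 79.9, 87.7 and 89.5 CPM (7.01 ± 0.21) and *Cxcl11* had 11, 13 and 3 counts without and 998, 1511 and 1627 counts with IFN-β (7.28 ± 0.24). The annotation calls *Cxcl11* a polymorphic pseudogene. *Ccl5* went from 22.7, 22.6 and 22.2 to 126.7, 117.6 and 115.8 CPM (2.41 ± 0.10). Of 24 cytokines and antagonists, 15 rose and 2 fell. The pair *Il15* and *Il15ra*, which together support T and natural killer cells, rose by 2.03 ± 0.06 and 3.24 ± 0.07, and *Il27* by 4.03 ± 0.16. *Il18* and its soluble antagonist *Il18bp* both rose (1.86 ± 0.13 and 2.48 ± 0.07). *Hgf*, a growth factor, fell from 26.8, 26.2 and 26 to 16.8, 16.2 and 18.2 CPM (-0.63 ± 0.08), and *Igf1* from 315.9, 359.1 and 338.9 to 268.4, 304.1 and 300.6 CPM (-0.22 ± 0.05). Chemokine receptors went both ways, with 4 higher and 4 lower of 11 (36.4% each, against 23.7% and 24.6% of all genes). *Ccr1*, among the 4 higher, turned sign with library totals (-0.051). *Ccr7*, which guides DCs to lymph nodes, rose from 48.2, 52.6 and 52.01 to 82.8, 79.03 and 81.7 CPM (0.67 ± 0.07), and *Ackr3*, a scavenging receptor, fell from 6.72, 10.6 and 8.99 to 2.42, 3.46 and 4.14 CPM (-1.37 ± 0.21).

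Genes of programmed cell death mostly rose, 27 of 36 with 5 lower and a median of 0.56. *Casp4*, which senses cytosolic lipopolysaccharide, went from 24.97, 24.3 and 24.04 to 140, 155.6 and 142.1 CPM (2.58 ± 0.05), and *Mlkl*, the effector of necroptosis, from 26.8, 26.97 and 24.5 to 134, 142.4 and 140.5 CPM (2.41 ± 0.05). *Casp6* fell from 30.2, 31.6 and 31.1 to 18.9, 18.5 and 20.1 CPM (-0.69 ± 0.07). Of 44 phagocytic, scavenger and Fc receptors 19 rose (43.2%, against 23.7% of all genes) and 10 fell (22.7%, against 24.6%). The high-affinity Fc receptor *Fcgr1* went from 35.1, 43.2 and 44.4 to 334.2, 357.1 and 355.6 CPM (3.09 ± 0.09), and *Siglec1*, which captures sialylated particles, from 50.7, 54.3 and 53.7 to 337.5, 299.4 and 325.5 CPM (2.60 ± 0.09).

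The 15 largest falls among genes with a mean log2 CPM of at least 3 covered genes of several functions, among them growth signalling, lipid and nucleotide synthesis and ribosome assembly. *Deptor* (ENSMUSG00000022419), an inhibitor of the mTOR kinase, had 68.96, 70.9 and 69.6 CPM in unstimulated and 19.9, 16.7 and 16.7 CPM in IFN-β libraries, a log2 change of -1.98 ± 0.10 (adjusted p = 8.37e-11). The unstimulated libraries were within 2 CPM of each other, and no treated library reached 20 CPM. *Igf1r*, the receptor for insulin-like growth factor, fell from 69.6, 73.97 and 62.9 to 17.3, 20.7 and 16.3 CPM (-1.93 ± 0.11), and *Prkag2*, a nucleotide-sensing subunit of AMPK, from 26.4, 26.3 and 26.7 to 9.35, 7.26 and 8.07 CPM (-1.69 ± 0.08). *Kcnn3*, a calcium-activated potassium channel, fell from 73.2, 72.1 and 62.4 to 19.2, 18.5 and 15.9 CPM (-1.96 ± 0.10). *Elovl6*, which lengthens palmitate, fell from 16.2, 12.9 and 16.9 to 4.75, 4.84 and 4.99 CPM (-1.65 ± 0.15). *Cad*, the enzyme of the first steps of pyrimidine synthesis, fell from 20.7, 20.7 and 23.9 to 7.65, 6.80 and 6.94 CPM (-1.61 ± 0.11). *Cluh*, which binds mRNAs of mitochondrial proteins, fell from 48.03, 52.4 and 60.6 to 17.8, 16.9 and 17.01 CPM (-1.64 ± 0.10). The remaining leaders were *B3galt2* (-1.84), *Utp20* (-1.61), *Rnf150* (-1.59), *Nat10* (-1.58), *Nop58* (-1.57), *Lepr* (-1.55), *Smyd3* (-1.55) and the antisense transcript *F630028O10Rik* (-1.96). Whether counting used strand is not given in the sources used here, so antisense reads cannot be told apart from those of a gene on the other strand.

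The insulin, IGF, mTOR and AMPK genes were then counted as a list, which was written after the values were seen. Of 35 tested, 14 fell (40%, against 24.6% of all genes) and 7 rose (20%, against 23.7%), with a median of -0.16. With library totals alone 26 fell (74.3%, against 45.5% of all genes) and 3 rose. *Irs2*, the insulin receptor substrate, fell from 40.9, 43.7 and 41.5 to 18.2, 18 and 19.1 CPM (-1.19 ± 0.05) and *Insr* from 162.9, 153.3 and 150.4 to 104.9, 104 and 103.7 CPM (-0.58 ± 0.05). In the other direction *Rictor*, of mTOR complex 2, rose from 133.2, 137.4 and 128.6 to 174.5, 185.9 and 176.7 CPM (0.43 ± 0.04).

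Ribosome biogenesis was the process with the lowest median. Of 43 genes tested, 41 fell (95.3%, against 24.6% of all genes), 17 of them by at least 1 on the log2 scale, and the median was -0.89 against -0.03 for all genes. With library totals alone 42 fell and the median was -1.13 against -0.27. *Dkc1*, the pseudouridine synthase of box H/ACA particles, had 7.16, 7.29 and 9.73 CPM without and 1.90, 2.31 and 1.73 CPM with IFN-β (-2.03 ± 0.22, adjusted p = 1.17e-06), and its partner *Gar1* had 4.04, 3.44 and 5.28 and 1.73, 1.53 and 1.84 CPM (-1.32 ± 0.20). *Nop58* fell from 16.5, 18.9 and 23.9 to 6.63, 7.33 and 6.02 CPM (-1.57 ± 0.16) and the methyltransferase of the same particle, *Fbl*, from 11.4, 13.02 and 14.9 to 7.08, 6.43 and 7.09 CPM (-0.93 ± 0.12). The falls thus covered both classes of RNA-guided modification. RNA polymerase I was lowered in its large subunits, with *Polr1a* going from 33.6, 35.9 and 41.7 to 18.4, 17.4 and 16.6 CPM (-1.09 ± 0.09) and *Polr1b* from 9.01, 11.6 and 12.7 to 3.48, 3.89 and 3.81 CPM (-1.57 ± 0.14). Its promoter factor *Ubtf* fell by far less, from 49.1, 53.95 and 56.2 to 47, 47.2 and 45.8 CPM (-0.19 ± 0.07, adjusted p = 0.0276). Proteins of early pre-ribosomes fell as well, *Utp20* from 38.9, 39.5 and 42.9 to 14.6, 13.7 and 11.8 CPM (-1.61 ± 0.11) and *Rrp12* by -1.44 ± 0.13. The abundant nucleolar proteins moved less, with *Npm1* from 196.1, 182.6 and 196.9 to 135.8, 135.6 and 131.2 CPM (-0.52 ± 0.05) and *Ncl* from 131.8, 123.1 and 124.8 to 91.05, 91.9 and 87.8 CPM (-0.49 ± 0.06). The single member called higher, *Wdr43*, had 30.6, 32.5 and 35.9 and 38.3, 39.1 and 36.6 CPM (0.20 ± 0.06, adjusted p = 0.0164), and this call was lost without unstimulated replicate 1 (0.123) or 2 (0.0712) and its sign turned with library totals (-0.04).

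**Figure D3:**
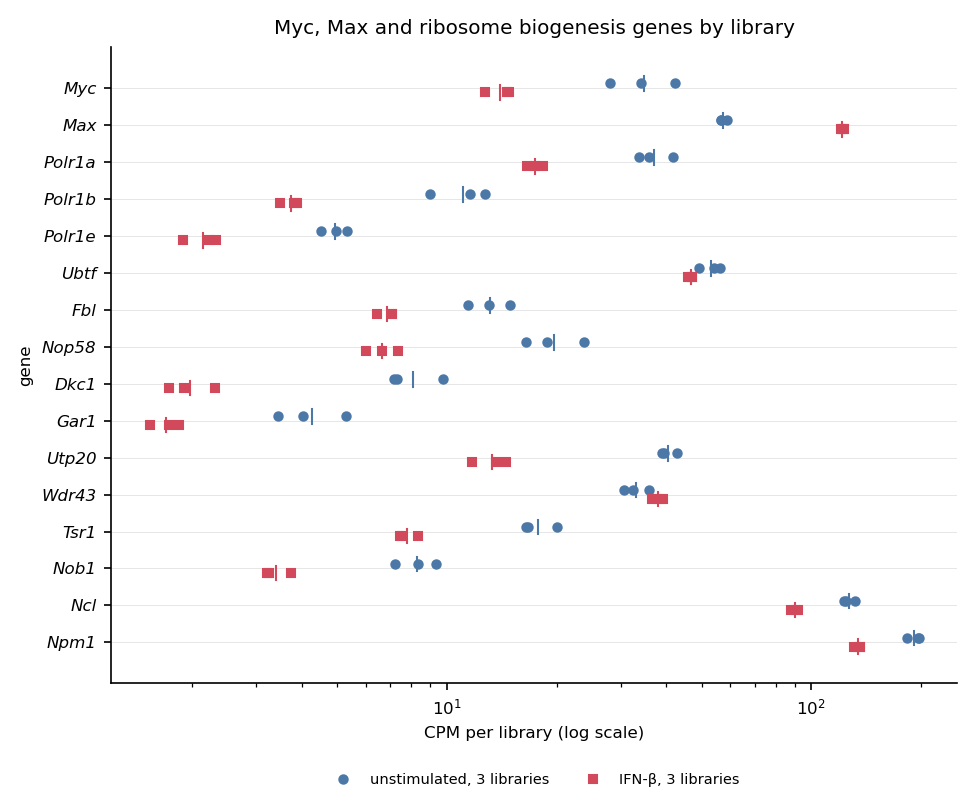
The x axis gives CPM on a log scale for *Myc*, *Max* and 14 ribosome biogenesis genes; circles are the 3 unstimulated and squares the 3 IFN-β shControl libraries, and vertical ticks are group means. *Dkc1* lies between 7.16 and 9.73 CPM without IFN-β and between 1.73 and 2.31 CPM with it, and *Wdr43* and *Max* are the genes with higher squares.

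*Myc*, a transcription factor whose known targets include ribosome biogenesis genes, fell with them, from 28.1, 34.1 and 42.3 to 14.8, 12.7 and 14.6 CPM (-1.31 ± 0.12, adjusted p = 2.39e-07), while its partner *Max* rose from 56.5, 58.6 and 56.6 to 120.4, 121.8 and 122.6 CPM (1.09 ± 0.04). In the list of immediate early and growth transcription factors 12 of 34 rose (35.3%, against 23.7% of all genes) and 10 fell (29.4%, against 24.6%), with a median of 0.04, and *Mafk* rose by 1.56 ± 0.06 and *Cebpd* fell by 0.78 on the log2 scale. Cytosolic ribosomal proteins moved in the same direction as the assembly factors but by less. Of 78 tested, 55 fell (70.5%, against 24.6% of all genes), with a median of -0.22. *Rpl3* went from 139.7, 132.9 and 143.1 to 95.7, 91.8 and 95.4 CPM (-0.56 ± 0.06). With library totals 76 fell (97.4%, against 45.5% of all genes), and 55 became 41 without IFN-β replicate 2. *Rps20* was called higher (0.23 ± 0.06), with the sign turned under library totals (-0.01).

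Lists for nucleotide synthesis and for cytosolic aminoacyl-tRNA synthetases were also added after the values were seen. In purine and pyrimidine synthesis 14 of 18 genes fell, with a median of -0.65. *Atic*, which closes the purine ring, went from 57.5, 52.95 and 62.4 to 23.2, 22 and 23.4 CPM (-1.33 ± 0.07, adjusted p = 1.94e-10), *Gart* from 32.4, 35.5 and 39.3 to 17.5, 15.4 and 16.99 CPM (-1.10 ± 0.11) and *Paics* from 76.3, 76.01 and 76.97 to 44.1, 44.5 and 45.8 CPM (-0.77 ± 0.05). These enzymes act at different steps of purine assembly. *Impdh2*, at the branch to guanine nucleotides, fell from 18.4, 19.7 and 20.7 to 9.40, 9.85 and 9.90 CPM (-1.01 ± 0.10). *Mthfd1*, which supplies formyl groups for purines, fell from 12.8, 12.3 and 13.4 to 4.15, 4.06 and 3.98 CPM (-1.66 ± 0.12), whereas its mitochondrial relative *Mthfd2* rose from 23.6, 21.4 and 22.5 to 51.95, 51.1 and 52.8 CPM (1.21 ± 0.05). Both belong to the list of amino acid stress and one-carbon genes, of which 7 of 27 rose and 7 fell. These shares (25.9% each) were near those of all genes (23.7% and 24.6%). Of 23 synthetases and their scaffold proteins, 18 fell and 5 rose, with a median of -0.26. *Iars* fell from 76.5, 78.1 and 80.7 to 34, 31.8 and 31.1 CPM (-1.28 ± 0.06), and *Wars*, the synthetase for tryptophan and a known interferon-induced gene, rose from 33.3, 32.5 and 31.9 to 94.03, 94.7 and 94.3 CPM (1.54 ± 0.04).

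Lipid synthesis fell in both of its branches. In cholesterol synthesis and uptake 18 of 26 genes fell (69.2%, against 24.6% of all genes) and 2 rose, with a median of -0.32. With library totals alone 24 fell (92.3%, against 45.5%) and the median was -0.56. *Sqle*, which makes squalene epoxide, went from 127.3, 108.4 and 112.5 to 79.3, 70.3 and 71.6 CPM (-0.66 ± 0.08, adjusted p = 8.09e-06), and *Stard4*, a sterol carrier, from 91.1, 79.5 and 86.5 to 56.4, 53.99 and 53.1 CPM (-0.65 ± 0.06). *Idi1*, of the 2 called higher (0.16 ± 0.06), turned sign with library totals (-0.079) and lost the call without any one of unstimulated replicates 1 to 3 (adjusted p from 0.0649 to 0.175) or without IFN-β replicate 1 (0.117). *Ch25h*, whose product 25-hydroxycholesterol blocks sterol synthesis and viral entry, rose from 2.05, 1.90 and 2.36 to 21.9, 24.9 and 19.1 CPM (3.39 ± 0.19). In fatty acid synthesis 13 of 23 genes fell and 3 rose. *Scd2*, a desaturase, went from 1624, 1405 and 1369 to 777.2, 664.5 and 696.9 CPM (-1.04 ± 0.08) and *Fasn*, the synthase, from 116.6, 114.1 and 151.4 to 65, 59.4 and 68.9 CPM (-0.98 ± 0.12). *Acsl1*, which activates fatty acids, rose from 260.5, 279.9 and 254.9 to 858.4, 1014 and 906.6 CPM (1.80 ± 0.07). Lipid receptors diverged: *Pparg* fell from 16.1, 14.8 and 16.2 to 6.54, 6.54 and 5.95 CPM (-1.31 ± 0.10), and *Nr1h3*, which encodes LXRα, rose from 4.36, 3.997 and 3.97 to 9.46, 9.98 and 10.3 CPM (1.27 ± 0.09). The PPAR target *Angptl4* fell (-1.77 ± 0.20), but *Plin2* (0.60 ± 0.06) and *Fabp4* (0.39 ± 0.07) of the same list rose, the latter call being lost with library totals. In that list 12 of 26 rose and 6 fell.

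Lists of mitochondrial metabolism had medians from -0.52 to -0.10. In the TCA cycle list 17 of 26 genes fell (65.4%, against 24.6% of all genes) and 2 rose, with a median of -0.20. The respiratory chain list had 25 of 72 lower (34.7%) and 2 higher, with a median of -0.10. Without IFN-β replicate 2 the 25 became 14, and with library totals alone 65 (90.3%, against 45.5% of all genes). *Idh1* fell from 575.4, 642.9 and 616.8 to 325.6, 341.2 and 380.7 CPM (-0.81 ± 0.06) and *Idh3a*, of the rate-setting isocitrate dehydrogenase, from 34.9, 32.5 and 36 to 15.2, 15.5 and 16.9 CPM (-1.12 ± 0.08). *Acod1*, which turns aconitate into itaconate, rose from 389.7, 394.4 and 370.3 to 1889, 2133 and 2004 CPM (2.38 ± 0.05), the opposite direction. In mitochondrial fatty acid oxidation 12 of 21 fell (57.1%) and 4 rose, with a median of -0.32. *Hadh* was lower (-0.94 ± 0.07) and *Acadl* higher (1.01 ± 0.05). Of the 7 protein genes of the mitochondrial genome that could be tested, a list added after the values were seen, 5 fell, with a median of -0.52. *mt-Nd1* went from 4123, 4128 and 4101 to 2858, 2780 and 2985 CPM (-0.52 ± 0.08) and *mt-Cytb* from 3110, 2998 and 3141 to 1968, 2029 and 2126 CPM (-0.60 ± 0.07), with no overlap of the groups (as for 56.7% of all tested genes). *Cycs*, cytochrome c, rose from 24.3, 22.8 and 26.6 to 52.6, 52.4 and 53.2 CPM (1.10 ± 0.06).

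The 5 metabolic genes that were named whatever their values had small log2 differences. *Ppargc1b*, encoding the co-activator PGC-1β, had 33.4, 33.3 and 36.7 CPM without and 31.4, 23.6 and 28.4 CPM with IFN-β (-0.31 ± 0.10, adjusted p = 0.0210), and the call was lost without IFN-β replicate 2 (0.157) or 3 (0.0545) or unstimulated replicate 3 (0.0654). The succinate dehydrogenase genes *Sdha* and *Sdhb* had log2 differences of -0.02 ± 0.04 (adjusted p = 0.781) and 0.15 ± 0.05 (0.0291). The second call was lost without IFN-β replicate 3 (0.0687) or unstimulated replicate 2 (0.228) or 3 (0.0534), and with library totals the differences were -0.26 and -0.09. *Cpt1a*, the gate of fatty acid entry, had 132.6, 130.5 and 132.7 and 148.3, 141.4 and 156.3 CPM (0.17 ± 0.05), with the sign turned under library totals (-0.07). The glucose transporter gene *Slc2a1* went from 691.4, 708.3 and 613.5 to 540.4, 567.7 and 583.3 CPM (-0.25 ± 0.09, adjusted p = 0.0332), and 5 of the 6 fits that left out 1 shControl library lost this call (0.0633 to 0.139). Glycolysis genes were split, 9 of 24 higher (37.5%, against 23.7% of all genes) and 7 lower (29.2%, against 24.6%). *Hk3*, a hexokinase of myeloid cells, rose from 92.04, 93.6 and 91.4 to 285.8, 293.8 and 288.8 CPM (1.65 ± 0.05), and *Slc16a1*, a lactate transporter, fell from 26.4, 24.5 and 25.2 to 12.1, 11.97 and 11.1 CPM (-1.11 ± 0.08).

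Of the cell division genes, those of mitosis had the lower median. Of 33 mitosis genes, 18 fell (54.5%, against 24.6% of all genes), 6 of them by at least 1 on the log2 scale, with a median of -0.63. *Cenpf*, a kinetochore protein, went from 24.7, 18.3 and 25.1 to 9.16, 8.47 and 12.1 CPM (-1.19 ± 0.25, adjusted p = 0.00102), and *Kif20a*, a motor of cytokinesis, from 14.7, 12.5 and 17.4 to 7.24, 5.69 and 8.31 CPM (-1.06 ± 0.23). The unstimulated libraries differed among themselves in these genes, and 30 of the 33 were called lower when the 6 shControl libraries were fitted alone. Of 42 DNA replication genes 11 fell (26.2%), near the share of all genes, 6 rose and 25 were not called. The 11 became 24 with library totals alone, 4 without IFN-β replicate 2 and 7 without unstimulated replicate 3. *Dut*, which keeps uracil out of DNA, fell from 4.57, 6.03 and 5.53 to 2.61, 3.48 and 3.05 CPM (-0.82 ± 0.15), and *Mcm10*, of the replication fork, rose from 4.85, 4.87 and 5.85 to 9.81, 10.04 and 10.7 CPM (0.97 ± 0.20).

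The adhesion and alternative-activation lists had shares of falls no higher than all genes, and single members stood out by the size of their change in CPM. *Fn1*, fibronectin, lost the most CPM of all genes, going from 5776, 6044 and 5186 to 3195, 3215 and 2873 CPM (-0.87 ± 0.08, adjusted p = 2.02e-07), followed by *Thbs1*, thrombospondin, from 3802, 3963 and 3400 to 2233, 2256 and 2086 CPM (-0.76 ± 0.09). Of 41 adhesion, matrix and actin genes 15 rose (36.6%) and 10 fell (24.4%), and the rises included *Itga4* (1.39 ± 0.07) and *Vcam1* (2.15 ± 0.20), a receptor and its ligand. *Actb* gained the most CPM, from 10170, 9887 and 10280 to 16680, 16470 and 16810 CPM (0.72 ± 0.04). Of 20 alternative-activation genes 4 fell (20%) and 3 rose (15%). *Arg1*, arginase, went from 1006, 1427 and 1091 to 504.2, 720.9 and 616.2 CPM (-0.94 ± 0.18, adjusted p = 3.84e-04), and *Cd163*, the scavenger receptor for haemoglobin, from 0.630, 0.803 and 0.780 to 0.130, 0.283 and 0.141 CPM (-1.997 ± 0.36). Lysosome genes leaned the other way, 28 of 45 higher and 3 lower with a median of 0.17, led by *Npc2* (1.17 ± 0.04) and *Lamp2* (0.94 ± 0.04). With library totals 15 rose (33.3%, against 14.3% of all genes) and 18 fell (40%, against 45.5%). Of 26 genes of GM-CSF and related receptors 10 were higher (38.5%) and 7 lower (26.9%), which became 5 (19.2%) and 11 (42.3%) under that scaling. Of 26 genes of LXR and PPAR lipid handling 12 were higher (46.2%) and 6 lower (23.1%), which became 7 (26.9%) and 13 (50%). Among all genes 23.7% were higher and 24.6% lower, which became 14.3% and 45.5%.

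**Figure D4:**
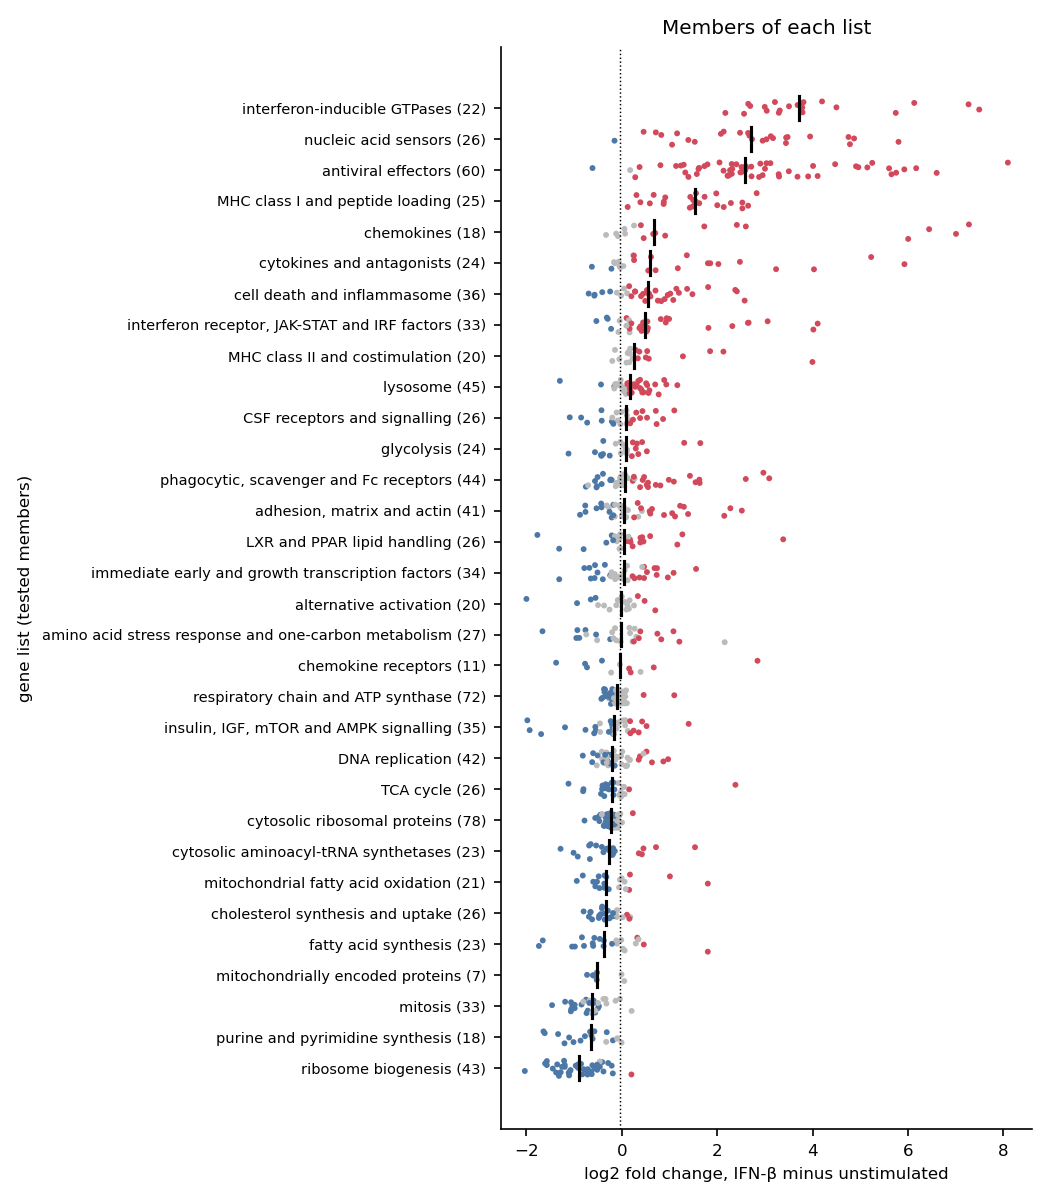
Each row is 1 gene list with its number of tested members, each point is a member's log2 fold change with IFN-β (red called higher, blue called lower, grey not called), the black bar is the list median, and the dotted line is the median of all genes (-0.03). Interferon-inducible GTPases have the highest median (3.73) and ribosome biogenesis the lowest (-0.89).

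The position of the induced genes was examined next. Of 213 placed genes that rose by at least 3 on the log2 scale, 100 (46.9%) lay within 100 kb of another such gene, and no share for other sets of this size was computed. In the larger set of 630 placed genes that fell by at least 1, 180 (28.6%) lay so near another of the set. The longest run held 13 genes of the IFI200 family and its pseudogenes on chromosome 1, from 173468485 to 174031810, from *Ifi206* to *Ifi205*, where all 15 tested genes rose. On chromosome 19, 7 genes from *Ch25h* to *Ifit1* lay between 34473778 and 34650009, and all 9 tested genes there rose. A second run on that chromosome, from 11404770 to 11531256, held 7 genes from *Ms4a4c* to *Ms4a6b*. Guanylate-binding protein genes formed a run of 5 on chromosome 5, from *Gbp9* to *Gbp11* (105077630 to 105346472), and *Cxcl9*, *Cxcl10* and *Cxcl11* lay with *Art3* between 92321347 and 92414628 of the same chromosome. Members of such families are duplicated genes, and those with near-identical copies may share reads.

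Promoter letters were counted in all matched genes. The ISRE core was in 3.28% of all 11263 promoters, in 6.14% of those of genes called higher and in 2.07% of those of genes called lower. The share grew with the size of the rise, from 6.97% at a log2 fold change of 1 to 2 to 19.1% at 2 to 3, 25% at 3 to 5 and 35.1% (13 of 37) at 5 or more. Of 12 GTPase promoters 11 held it, as shown above for *Tgtp1*, and of 45 antiviral effectors 19 did. The GAS core was in 7.04% of all promoters and in 14.6% of those of genes that rose by at least 3. The sterol element core was in 1.07% of all promoters and in 1 of 19 in the cholesterol list. The E2F core was in 8.22% of all and in 15 of 33 promoters of DNA replication genes. The E-box was in 9.8% of all promoters, in 14.5% of those of genes that fell by at least 1 and in 10 of 38 (26.3%) in the ribosome biogenesis list, as shown above for *Utp20*. It was also in 4 of 19 (21.1%) in the cholesterol list, 3 of 16 (18.8%) in purine and pyrimidine synthesis, 6 of 33 (18.2%) in DNA replication and 2 of 28 (7.14%) in mitosis. These shares are descriptions of letters in fixed windows, and base composition was not matched between the sets.

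**Figure D5:**
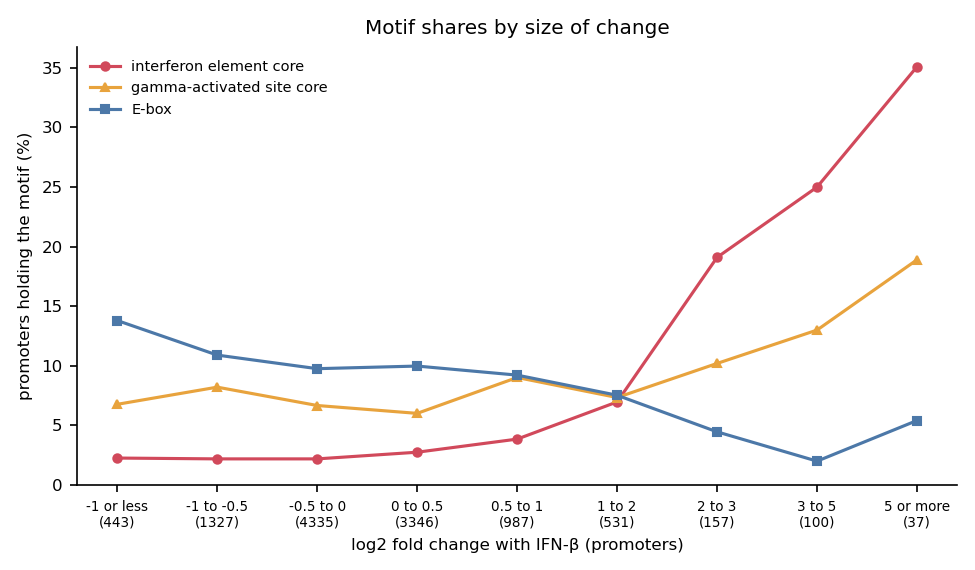
The x axis groups promoters by the log2 fold change of their gene with IFN-β (number of promoters in brackets) and the y axis is the percentage holding each motif on either strand. The ISRE core goes from 2.26% in the lowest group to 35.1% in the highest, and the E-box from 13.8% to 5.41%.

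The control response was last set beside that of sh*Ppargc1b* cells, to show where it differs. The difference of the log2 fold changes was tested for every gene, and 133 of 18228 genes (0.73%) passed. Of these, 122 had a higher value in shControl and 11 a lower one. *Tent5c*, a poly(A) polymerase, rose by 2.57 in shControl and by 1.68 in sh*Ppargc1b* cells, a difference of 0.88 (adjusted p = 5.19e-05). *Cd86* rose by 2.13 and 1.56, a difference of 0.57 (adjusted p = 7.43e-04), and *Acod1* by 2.38 and 1.72 (0.66, adjusted p = 7.44e-04). For these induced genes the control rise was the larger one on the log2 scale, and their untreated levels were higher in sh*Ppargc1b* cells. Mean CPM of *Cd86* went from 41.1 to 180 in shControl and from 76.8 to 226.7 in sh*Ppargc1b* cells. *Acod1* went from 384.8 to 2009 and from 660.5 to 2182, and *Tent5c* from 23.95 to 141.7 and from 37.95 to 121.9. Treated levels of *Cd86* and *Acod1* were thus higher in sh*Ppargc1b* cells, and that of *Tent5c* was lower. Among the 11, *Mfap3l* fell by 1.38 in shControl and by 0.50 in sh*Ppargc1b* cells on the log2 scale, a difference of -0.88 (adjusted p = 0.0117), so its fall was deeper in the control. *Myc* differed by -0.48 (adjusted p = 0.262), *Dkc1* by -0.54 (0.582) and *Deptor* by -0.25 (0.575), none past the threshold. The count of 133 was 36 without shControl unstimulated replicate 3 and 271 without sh*Ppargc1b* IFN-β replicate 2, and other fits gave more, 394 by DESeq2, 425 with a block for runs of library codes and 525 with all genes of at least 1 count.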

How the data were processed

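Ribosomal RNA-depleted RNA of shControl and sh*Ppargc1b* DCs, unstimulated or treated with IFN-β for 6 h, had been sequenced in 3 libraries per group. The authors trimmed reads (Trim Galore 0.6.0 and STAR 2.7.8a are in the submitters' processing notes), aligned them to mm10 with STAR and deposited raw counts per gene from uniquely mapped reads on GENCODE annotation. The strand setting is not given in the sources used here.

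Genes were filtered with filterByExpr (minimum count 10, minimum total 15), and 18228 of 55471 were tested with edgeR 4.0.16 (R 4.3.3) by the quasi-likelihood F-test with TMM factors, on all 12 libraries with 1 mean per group and Benjamini-Hochberg adjustment at 0.05. SE is the log2 fold change divided by the square root of F. Alternatives were DESeq2 1.42.0 size factors and Wald test, library totals, no count filter, a block for runs of library codes, the 6 shControl libraries alone and each library left out. Code was tested on simulated data. Replicate pairs of shControl libraries differed by a chi-square per degree of freedom of 8.23 to 13.4, beyond sampling noise. The library totals of 49.9 to 77.7 M set counting error only.

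The 12 largest rises, the 15 largest falls and the 5 largest rises and falls in CPM were named. They were taken among genes with an adjusted p under 0.05, a mean log2 CPM no lower than 3 and no overlap of groups. Up to 4 and 2 called members per list and direction were named without the limits on level and overlap. Up to 5 differences per direction needed an adjusted p under 0.05 for the difference and a mean log2 CPM over all 12 libraries no lower than 3. In addition, 9 genes were named always. Some genes that the rule names are not reported here. Other named genes were chosen after their values were seen, to stand for a role in a list. The gene lists and members were chosen with earlier results of these data known. Gene positions are from GENCODE on GRCm38.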

Additional observations from a re-analysis of the deposited data

Results flagged for a closer look

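The IFN-β response of 22 named genes differed between shControl and sh*Ppargc1b* cells by the test of the difference itself (edgeR's quasi-likelihood test, adjusted p under 0.05, log2 fold change in shControl minus that in sh*Ppargc1b*). The larger rise on the log2 scale in shControl was in antigen presentation and costimulation for *Tnfsf4* (0.80), *Cd40* (0.77), *Cd86* (0.57) and *Nlrc5* (0.40), in interferon-stimulated genes for *Irf7* (0.72), *Ifi205* (0.71) and *Ifi44* (0.85), and in cytokine and lymphocyte-signal genes for *Ccl5* (0.85), *Cd69* (0.86) and *Il15ra* (0.73). It was also larger for *Tent5c* (0.88), *Acod1* (0.66), *Mafk* (0.50), *Hk3* (0.45), *Npc2* (0.33), *Slc3a2* (0.32) and *Casp4* (0.31). In the other direction the differences were -0.88 in *Mfap3l*, -0.82 in *Arhgap26*, -0.57 in *Fam43a* and -0.49 in *Irs2*, which fell further in shControl, and -0.49 in *Fabp4*, which rose less there. The call for *Arhgap26* was lost in 4 fits that left out 1 library (adjusted p from 0.0538 to 0.0656) and that for *Fabp4* in 8 (0.0583 to 0.102).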

How the results depend on the processing

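With library totals alone, 2598 genes (14.3%) were called higher and 8294 (45.5%) lower, and 84 for the difference between responses. Under that scaling, members called higher were 2 in chemokine receptors, 7 in LXR and PPAR targets, 15 in lysosome, 5 in CSF receptors and 4 in glycolysis, and members called lower were 24 in DNA replication, 31 in mitosis, 9 in alternative activation, 65 in the respiratory chain and 26 in insulin and mTOR signalling. The sign turned for *Ccr1* (-0.051), *Idi1* (-0.079), *Sdhb* (-0.085), *Wdr43* (-0.036), *Rps20* (-0.0064) and *Cpt1a* (-0.067). With all genes of at least 1 count, the difference had 525 calls, DNA replication 18 lower and mitosis 30. The block for runs of library codes gave 425, 17 and 30, and 16 class II and costimulation genes higher. DESeq2 gave 394 differences, and the 6 shControl libraries alone gave 30 mitosis genes lower. Leaving out 1 library gave 3867 to 4220 genes higher, 3686 to 4326 lower, 36 to 271 differences, 4 to 15 DNA replication genes lower and 14 to 32 respiratory chain genes lower. The count of differences moved by over 1.5 times without shControl IFN-β replicate 2 (61) or 3 (76), shControl unstimulated replicate 1 (61) or 3 (36), or sh*Ppargc1b* IFN-β replicate 2 (271) or 3 (77) or unstimulated replicate 2 (63) or 3 (59). The cause was not tested. Of the log2 fold changes of named genes under all alternatives, 2200 kept direction and call, 36 lost the call, 6 turned and 1 (*Sdha*) gained it. The labels carry no replicate numbers, and runs of successive library codes are not known to mark a shared culture, animal or day. The deviations of libraries from 1 run correlated at 0.136, 0.103 and 0.0940, and the block was kept as an alternative. On the second principal axis, however, the shControl libraries of 1 run lay near each other. Unstimulated and IFN-β scores there were 22.8 and 26.0 in the first run, -19.0 and -17.4 in the second, and -4.9 and -7.5 in the third. What the runs share was not tested.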

Other observations

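Some members of the lists above that were not named there, and *Malat1*, also changed in the same comparison of the 6 shControl libraries. *Ccl12*, a monocyte-attracting chemokine, rose from 0.122, 0.311 and 0.213 to 10.3, 17.5 and 14.4 CPM (6.01 ± 0.29, edgeR adjusted p = 1.09e-10), and *Tlr3*, the endosomal sensor of double-stranded RNA, from 18.3, 19.4 and 15.98 to 251.2, 297.6 and 281.7 CPM (3.95 ± 0.08). The lysosomal sulfatase *Sgsh* fell from 7.79, 7.67 and 8.14 to 2.42, 3.19 and 3.88 CPM (-1.30 ± 0.14), although 28 of 45 lysosome genes rose. *Malat1*, a nuclear long noncoding RNA, gained CPM, from 11950, 12150 and 11710 to 13740, 14890 and 14100 (0.25 ± 0.05), and this call was lost with library totals alone.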
